A study of Rattus norvegicus with 32 samples.

Results

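Havcr1, Lcn2, Spp1 and Clu, 4 genes whose transcripts rise in injured kidney tubules, were followed in the renal cortex of 29 male rats by RNA sequencing. They were chosen by Ensembl identifier and chromosome from the 26404 genes listed for every rat, and all 4 were on the chromosome stated and among the 14776 genes that passed the filter on low counts. The SD group (6 rats) was of the Sprague Dawley strain and served as the healthy control. The other groups belonged to the Zucker Diabetic Sprague Dawley strain (ZDSD), in which obesity and diabetes develop. SHAM rats (7) had a laparotomy only, RYGB rats (9) had Roux-en-Y gastric bypass, and RYGB-FMRR rats (7) had the bypass followed by fenofibrate, metformin, ramipril and rosuvastatin in their chow. All ZDSD groups received insulin for a week before surgery, and the labels give an age of 37 weeks throughout. However, the study's methods place sham surgery at a younger age than bypass, and bypass at a younger age in RYGB-FMRR than in RYGB. SHAM against SD therefore compares strain, diabetes and sham surgery together, and the 4 drugs cannot be told apart from one another. Among the ZDSD groups, age at surgery cannot be told apart from treatment.

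Injured tubular cells lose mature features and switch on a small set of genes whose products reach the urine. Havcr1 encodes kidney injury molecule 1, a membrane receptor of proximal tubular cells that lets them take up dying cells. Lcn2 encodes neutrophil gelatinase-associated lipocalin, a secreted protein that binds iron-carrying siderophores. Spp1 encodes osteopontin, a secreted phosphoprotein that binds integrins and CD44, draws in macrophages and is also made by healthy distal tubules. Clu encodes clusterin, a secreted chaperone that coats misfolded proteins and debris.

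Total counts in the 29 libraries ran from 14502127 to 27597901. A further 2 SHAM libraries, from rats 343 and 348, held 121511 and 101534 counts and were left out. Levels are given as CPM, counts per 1000000 reads scaled by edgeR's TMM method, and changes as log2 fold changes with a standard error (SE) and an adjusted p-value from edgeR's quasi-likelihood test over all genes. A gene was called differentially expressed at an absolute fold change of at least 1.3 with an adjusted p-value under 0.05. In bulk cortex, fewer cells of a type and less RNA per cell cannot be told apart. Genes that mark the cortex or its cell types were not analysed here, since the counts carry no gene symbols.

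Havcr1 (ENSRNOG00000007243) has 8 exons on the plus strand of chromosome 10 in build rn5, spanning bases 31644784 to 31668180. Lcn2 (ENSRNOG00000013973) has 6 exons on the minus strand of chromosome 3, spanning bases 16763059 to 16766466. Spp1 (ENSRNOG00000043451) has 7 exons on the minus strand of chromosome 14, spanning bases 6653093 to 6658953. Clu (ENSRNOG00000016460) has 9 exons on the minus strand of chromosome 15, spanning bases 48926516 to 48939266. No other listed gene overlapped any of these spans. Reads that align equally well to a near copy were not counted, so the level of Havcr1, which has close relatives beside it in the rat genome, is uncertain in that respect.

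The 250 bases before the transcription start were available from RefSeq (build GRCr8) for 3 of the 4 genes, and are shown because these genes moved together among SHAM rats. Each runs 5′ to 3′ on the strand of the gene, and capitals mark a match to one of 6 motifs searched on both strands. The Havcr1 window is chr10:31629528-31629777 (plus strand), the Lcn2 window chr3:36081781-36082030 (minus strand) and the Spp1 window chr14:5619805-5620054 (minus strand).
Havcr1: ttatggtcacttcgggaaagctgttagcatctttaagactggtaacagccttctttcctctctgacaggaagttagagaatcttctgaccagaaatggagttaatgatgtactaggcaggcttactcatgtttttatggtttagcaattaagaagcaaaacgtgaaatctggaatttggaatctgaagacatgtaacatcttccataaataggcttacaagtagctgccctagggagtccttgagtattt
Lcn2: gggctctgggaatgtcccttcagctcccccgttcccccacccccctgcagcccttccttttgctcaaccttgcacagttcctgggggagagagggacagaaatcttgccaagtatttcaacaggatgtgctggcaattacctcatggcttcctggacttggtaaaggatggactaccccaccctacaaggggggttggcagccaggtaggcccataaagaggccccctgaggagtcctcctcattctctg
Spp1: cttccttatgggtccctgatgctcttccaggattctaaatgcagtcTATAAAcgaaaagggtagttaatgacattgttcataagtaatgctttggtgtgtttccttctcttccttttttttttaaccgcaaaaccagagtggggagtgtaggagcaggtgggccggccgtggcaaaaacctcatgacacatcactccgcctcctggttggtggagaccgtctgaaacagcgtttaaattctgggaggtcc
The share of all 33469 RefSeq windows of this length that hold a motif is given beside it. The TATA box, searched as TATAAA at any distance from the start, was in 12.9% of windows. The GC box, searched as GGGCGG, was in 30.5%. The CCAAT box was searched by those 5 letters and was in 34%. An AP-1 site was searched as TGANTCA and was in 6.34%. A STAT site was searched as TTCNNNGAA and was in 7.67%. An NF-kB site was searched as GGGNNTTCC and was in 5.09%. The one match to these exact letters in the 3 windows was TATAAA in Spp1, from 204 to 199 bases before the start. No other motif overlapped it. Sites with other letters or of another length were not searched, so a window without a match can still hold such a site. The GC content was 39.2% in the Havcr1 window, 57.2% in that of Lcn2 and 46.8% in that of Spp1. Whether these windows bear on the shared movement among SHAM rats was not tested.

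The 4 genes differed widely in level. Per kilobase of exon, where levels can be compared between genes, the mean in SD rats was 121 CPM for Spp1 and 102 for Clu, against 2.66 for Lcn2 and 1.75 for Havcr1. In SD cortex Spp1 was above 94.6% of all genes tested and Havcr1 above 18.2%. In SHAM cortex the means per kilobase were 653 for Spp1, 108 for Clu, 12.1 for Havcr1 and 8.24 for Lcn2. Spp1 then stood above 99.5% of genes and Havcr1 above 51.6%. Counts behind the lowest values were 16 for Havcr1 and 27 for Lcn2, but at least 1567 for Clu and 2248 for Spp1, so counting error matters for the first pair only.

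**Figure D1:**
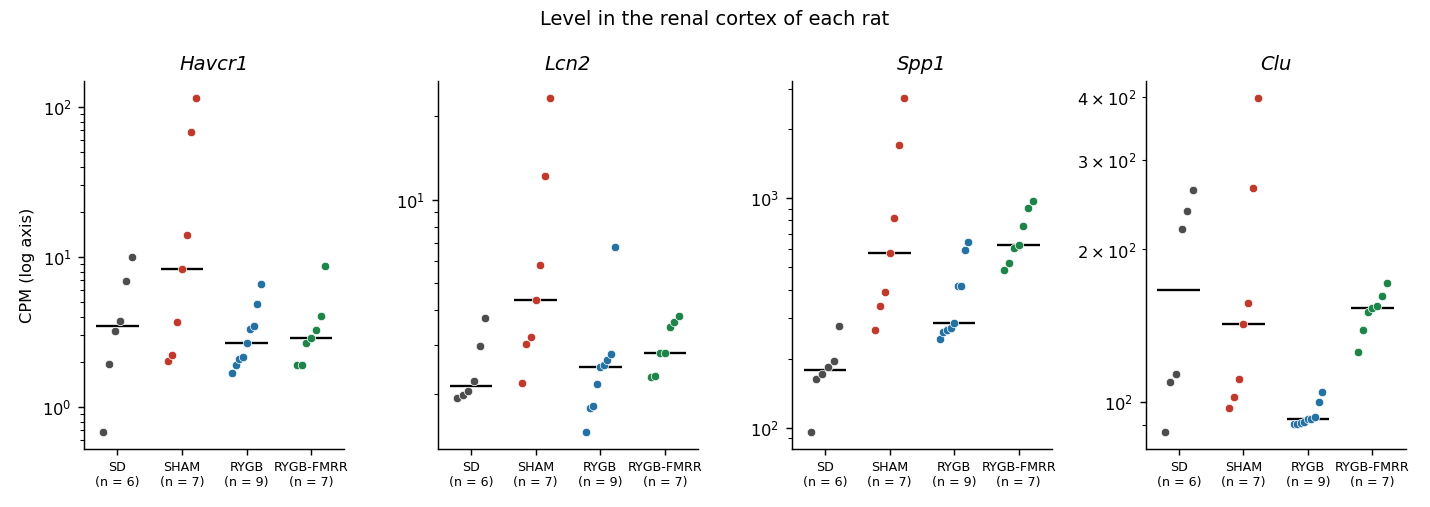
Level of each gene in each rat, in CPM on a log axis that differs between panels. Points are rats and bars are group medians; SHAM reaches from the range of the SD rats to 115 CPM for Havcr1 and 2738 CPM for Spp1, while the 9 RYGB rats lie within 90.4 to 105 CPM for Clu.

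Havcr1 was highest in SHAM, and the other 3 groups were not separated. It lay between 0.682 and 9.95 CPM in SD (median 3.47), between 2.03 and 115 in SHAM (median 8.37), between 1.68 and 6.61 in RYGB (median 2.65), and between 1.903 and 8.72 in RYGB-FMRR (median 2.91). The groups overlapped in every comparison, and 3 of 7 SHAM rats exceeded the highest SD rat. The log2 fold change was 2.80 (SE 0.75, adjusted p = 0.00479) in SHAM compared with SD, a 6.96-fold difference. Compared with SHAM, it was -3.25 (SE 0.66, adjusted p = 0.00183) in RYGB and -3.08 (SE 0.72, adjusted p = 0.00258) in RYGB-FMRR. With all 7 SHAM rats, the fall in RYGB was larger in size than that of 99.98% of the genes tested. That rank was not taken without the highest SHAM rats. Without SHAM rat 311 these 3 calls were kept with smaller changes, at 1.88 (adjusted p = 0.032) in SHAM compared with SD, -2.33 (adjusted p = 0.014) in RYGB and -2.16 (adjusted p = 0.0189) in RYGB-FMRR compared with SHAM. Havcr1 was not called in RYGB-FMRR compared with RYGB (0.17, SE 0.69, adjusted p = 0.905), RYGB compared with SD (-0.45, SE 0.71, adjusted p = 0.64) or RYGB-FMRR compared with SD (-0.28, SE 0.74, adjusted p = 0.814). The fitted changes follow mean counts and therefore the highest SHAM rats. Between mean log2 CPM values the difference was 1.70 in SHAM compared with SD, which an exact two-sided permutation test did not separate from the spread between rats (p = 0.15). By the same exact permutation test the difference was -1.86 in RYGB (p = 0.0261) and -1.73 in RYGB-FMRR (p = 0.088) compared with SHAM.

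Lcn2 was also highest in SHAM, with smaller differences. Its level ran from 1.94 to 3.75 CPM in SD (median 2.14), 2.19 to 23.2 in SHAM (median 4.36), 1.46 to 6.75 in RYGB (median 2.497) and 2.30 to 3.81 in RYGB-FMRR (median 2.81). The ranges of all groups overlapped, with 4 of 7 SHAM rats above every SD rat and 4 of 9 RYGB rats below every SHAM rat. The log2 fold change was 1.64 (SE 0.42, adjusted p = 0.00351) in SHAM compared with SD. It was -1.51 (SE 0.37, adjusted p = 0.00728) in RYGB and -1.36 (SE 0.39, adjusted p = 0.0134) in RYGB-FMRR compared with SHAM. All 7 RYGB-FMRR rats lay below the SHAM median, although none lay below the lowest SHAM rat. RYGB, RYGB-FMRR and SD were not separated: the log2 fold change was 0.15 (adjusted p = 0.843) between the bypass groups, 0.13 (adjusted p = 0.82) in RYGB compared with SD and 0.28 (adjusted p = 0.659) in RYGB-FMRR compared with SD. Without SHAM rat 311, Lcn2 was still called in SHAM compared with SD (1.03, adjusted p = 0.0224) but no longer in RYGB (-0.90, adjusted p = 0.0612) or RYGB-FMRR (-0.75, adjusted p = 0.11) compared with SHAM. On mean log2 CPM, the exact permutation test gave p = 0.0781 for RYGB-FMRR compared with SHAM.

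Spp1 was higher than in SD in all 3 ZDSD groups, and its median was highest in RYGB-FMRR. It ranged from 95.8 to 278 CPM in SD (median 178), 267 to 2738 in SHAM (median 579), 244 to 646 in RYGB (median 285) and 485 to 970 in RYGB-FMRR (median 624.8). The highest 2 SHAM rats lay above every other rat, while each RYGB-FMRR rat exceeded each SD rat and 6 of 7 SHAM rats did so. The log2 fold change was 2.43 (SE 0.43, adjusted p = 8.52e-05) in SHAM compared with SD, a 5.40-fold difference. RYGB was below SHAM (-1.37, SE 0.36, adjusted p = 0.0116), but was no longer called without SHAM rat 311 (-0.85, adjusted p = 0.0825). RYGB-FMRR and SHAM were not separated (-0.49, SE 0.38, adjusted p = 0.385), and the exact permutation test on mean log2 CPM gave a difference of -0.04 (p = 0.935). Compared with SD, Spp1 was 3.84-fold higher in RYGB-FMRR (log2 fold change 1.94, SE 0.42, adjusted p = 0.000724) and 2.09-fold higher in RYGB (1.06, SE 0.39, adjusted p = 0.0309). The call in RYGB compared with SD was lost without any 1 of SD rats 352, 354 and 357 or RYGB rats 330 and 338, where the adjusted p-value reached 0.0783.

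The call for Spp1 in RYGB-FMRR compared with RYGB differed between analyses. Of 9 RYGB rats, 7 lay below the lowest RYGB-FMRR rat. The log2 fold change was 0.88 (SE 0.36, adjusted p = 0.109) in the model of 4 groups, and 0.88 (adjusted p = 0.0126) in an edgeR model of these groups alone. It was not called by the Wald test of DESeq2 (0.88, adjusted p = 0.132) or with robust dispersion in edgeR (adjusted p = 0.123). The exact permutation test on mean log2 CPM gave a difference of 0.93 (p = 0.00323, unadjusted).

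Clu followed another order. It lay between 87.3 and 262 CPM in SD (median 166), 97.2 and 398 in SHAM (median 142), 90.4 and 105 in RYGB (median 92.6), and 125 and 172 in RYGB-FMRR (median 153). The SD rats fell into a lower set of 3 from 87.3 to 114 CPM and an upper set of 3 from 219 to 262 CPM, with none between, whereas the RYGB rats were nearly uniform. The SHAM level did not differ from SD beyond the spread between rats (log2 fold change 0.08, SE 0.26, adjusted p = 0.83). Clu was lower in RYGB than in SHAM (-0.95, SE 0.24, adjusted p = 0.00852) and than in SD (-0.87, SE 0.25, adjusted p = 0.00636). Without SHAM rat 311 the change from SHAM was -0.62 (adjusted p = 0.0483). Of the 9 RYGB rats, 7 lay below every SHAM rat, while 1 of the 6 SD rats lay below every RYGB rat. RYGB-FMRR was not separated from SHAM (-0.27, SE 0.25, adjusted p = 0.482) or from SD (-0.19, SE 0.26, adjusted p = 0.63).

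Every RYGB-FMRR rat had more Clu than every RYGB rat. The log2 fold change was 0.68 (SE 0.24), a 1.602-fold difference, with an adjusted p of 0.0603 in the model of 4 groups. That model pools the spread of all groups, and the standard deviation of log2 CPM for Clu was 0.07 in RYGB and 0.15 in RYGB-FMRR, against 0.68 in SD and 0.76 in SHAM. With these 2 groups alone in the edgeR model the adjusted p was 2.03e-07, with the Wald test of DESeq2 on all groups it was 0.0329, and with robust dispersion in edgeR it was 0.0683. The exact permutation test gave a difference of mean log2 CPM of 0.68 (p = 8.74e-05), which is the smallest p that 11440 arrangements can give. Of all genes tested, 1.96% had RYGB-FMRR rats all above RYGB rats.

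**Figure D2:**
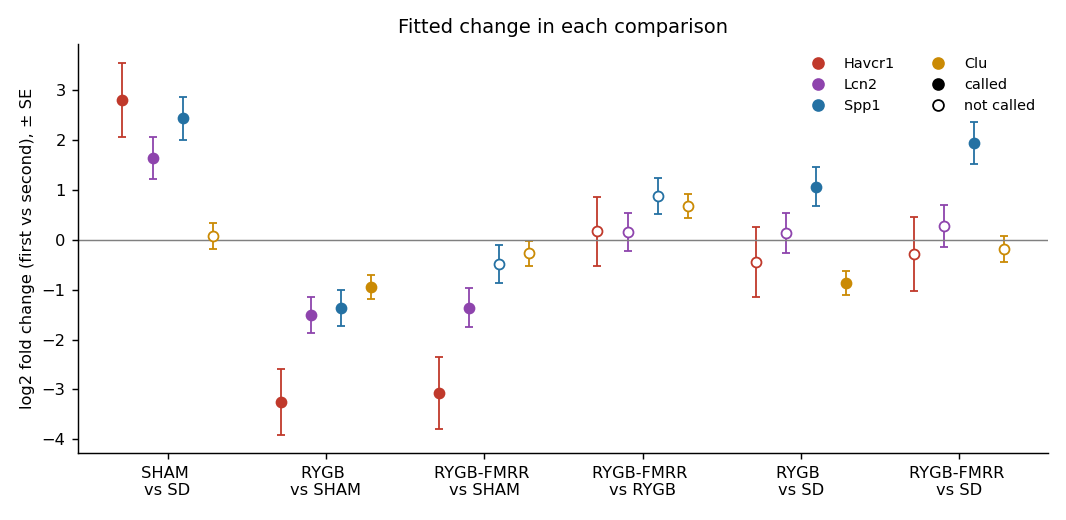
Log2 fold change of each gene in each of the 6 comparisons, the first group against the second, with bars of 1 SE; filled points were called and open points were not. Havcr1, Lcn2 and Spp1 are above 0 in SHAM compared with SD while Clu is at 0.08, and all 4 are below 0 in RYGB compared with SHAM.

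Counted over the comparisons, 3 of the 4 genes were higher in SHAM than in SD, where 10.6% of all genes tested were. In RYGB compared with SHAM 4 of 4 were lower, against 3.86% of genes. In RYGB-FMRR compared with SHAM 2 of 4 were lower, Havcr1 and Lcn2, against 7.7% of genes. Without SHAM rat 311, Havcr1, Lcn2 and Spp1 stayed called in SHAM compared with SD. Against SHAM, Havcr1 and Clu stayed called in RYGB, and Havcr1 alone in RYGB-FMRR. The share of all genes called was not counted in that fit, so the percentages given belong to the fit with all SHAM rats. These 3 comparisons share the SHAM rats, so their counts are not independent. Without SHAM rats 311 and 333 none of the 4 was called in RYGB compared with SHAM. The 4 genes also moved together among the SHAM rats (Pearson's r 0.957 to 0.995), so they do not count as separate results. They were chosen with earlier results of these data known. Between RYGB-FMRR and RYGB 0 of 4 were called by edgeR, where 4.56% of genes were called in either direction; Spp1 and Clu had unadjusted p-values of 0.0199 and 0.00774 in the edgeR model, and the Wald test of DESeq2 called Clu. In RYGB compared with SD 1 gene was higher (Spp1) and 1 lower (Clu), against 10.1% and 9.43% of genes. In RYGB-FMRR compared with SD 1 of 4 was higher (Spp1), against 7.8% of genes, and 5.45% of genes had RYGB-FMRR rats all above SD rats as Spp1 did.

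The order of the groups by median CPM was therefore not shared. For Havcr1 it was SHAM, SD, RYGB-FMRR and RYGB, and the last 3 did not differ beyond their spread. For Lcn2 it was SHAM, RYGB-FMRR, RYGB and SD, again with the last 3 not separated. For Spp1 it was RYGB-FMRR, SHAM, RYGB and SD, where RYGB-FMRR and SHAM were not separated and RYGB was above SD. For Clu it was SD, RYGB-FMRR, SHAM and RYGB, where the first 3 were not separated and the call between RYGB and RYGB-FMRR depended on the model.

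The 7 SHAM rats ranked almost alike by all 4 genes. Rat 311 was highest in each, followed by rats 333, 334 and 315 in that order, with rats 317, 321 and 340 in varying order below them. Rat 311 had 26.2 times the mean SD level of Havcr1, 9.33 times that of Lcn2, 15.1 times that of Spp1 and 2.32 times that of Clu. In rat 333 these ratios were 15.4, 4.88, 9.42 and 1.54. Rat 334 was next at 3.21, 2.34, 4.54 and 0.913 times. In the lowest 3 rats Havcr1 and Clu were below the SD mean, while Spp1 was between 1.47 and 2.15 times that mean.

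**Figure D3:**
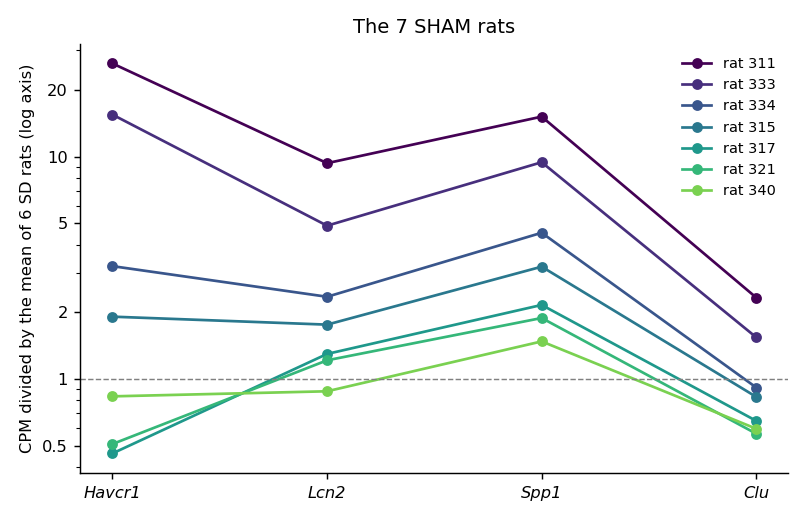
Level of each gene in each of the 7 SHAM rats, as CPM divided by the mean of the 6 SD rats, on a log axis; lines join the values of a rat and the dashed line marks the SD mean. Rats 311, 333, 334 and 315 keep their order in all 4 genes.

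Within SHAM all 6 pairs of genes correlated. Pearson's r of log2 CPM lay between 0.957 and 0.995 (n = 7), and each pair passed the exact permutation test after adjustment over 24 correlations in the 4 groups (adjusted p between 0.00475 and 0.00792). Lcn2 and Spp1 were closest, at r = 0.995 (exact permutation p = 0.000198, adjusted p = 0.00475) and Spearman's rho = 1 (exact permutation p = 0.000397, adjusted p = 0.00953). Spearman's rho lay between 0.857 and 1, and 3 of 6 pairs passed by rank after adjustment, those of Havcr1 not (rho 0.857 to 0.893, exact permutation p = 0.0123 to 0.0238, adjusted p = 0.0738 to 0.0816). Without the 2 rats farthest from the median, which were 311 and 333 in each pair, r was still between 0.785 and 0.993. As a background, 0.332% of all other genes reached r of 0.95 with Havcr1 in SHAM, 0.738% with Lcn2, 0.629% with Spp1 and 0.569% with Clu. These shares include the other 3 of the 4 genes each time, which follows from a cutoff below their lowest r of 0.957.

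The other groups held less of this pattern. In RYGB r was 0.751 for Lcn2 with Spp1 (n = 9, exact permutation p = 0.0083, adjusted p = 0.0285), with Spearman's rho of 0.783 (exact permutation p = 0.0172, adjusted p = 0.0816) and r = 0.556 without rats 330 and 346. The other 5 pairs in RYGB lay between -0.171 and 0.361. No pair passed adjustment in RYGB-FMRR (r 0.127 to 0.864) or in SD (r -0.02 to 0.833). By Pearson's r, Lcn2 with Spp1 was again the closest pair in RYGB-FMRR, at r = 0.864 (exact permutation p = 0.0181, adjusted p = 0.0543) and rho = 0.75 (exact permutation p = 0.0663, adjusted p = 0.177), with r = 0.687 without rats 324 and 336. By rank Havcr1 with Clu was closer, at rho = 0.786 (exact permutation p = 0.048, adjusted p = 0.144), with r = 0.769 (exact permutation p = 0.049, adjusted p = 0.131) and r = 0.975 without rats 323 and 336. In SD, rat 356 was highest in all 4 genes, and without the 2 farthest rats 3 of 6 pairs were negative. Whether the correlations differ between groups was not tested.

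**Figure D4:**
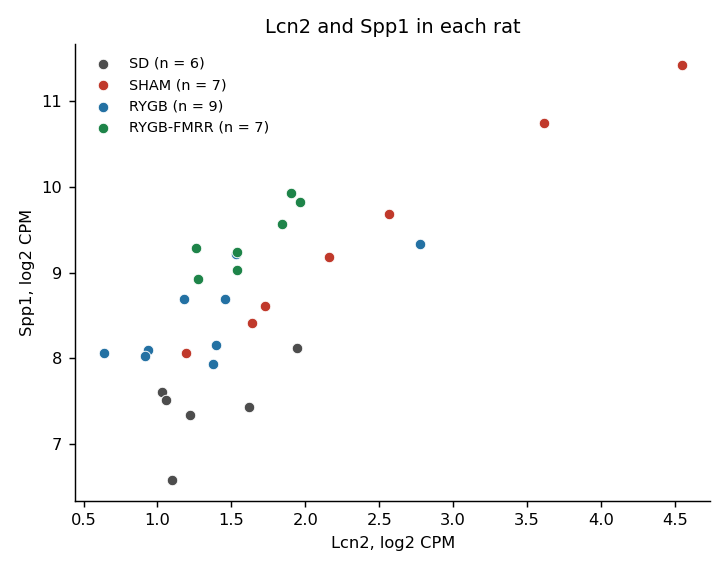
Spp1 against Lcn2 in each of the 29 rats, both in log2 CPM and coloured by group. The SHAM rats run along a line up to rat 311 at the upper right, and the RYGB-FMRR rats lie above the SD rats in Spp1 at similar Lcn2.

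The spread between rats also differed by group. In SHAM the standard deviation of log2 CPM was 2.30 for Havcr1, 1.20 for Lcn2, 1.25 for Spp1 and 0.76 for Clu, where the median gene had 0.19. Havcr1 varied more among SHAM rats than 99.8% of genes. Its rank was high in every group, above 99.5% of genes in SD, 96.3% in RYGB and 97.9% in RYGB-FMRR. In SD its standard deviation was 1.31, where the median gene had 0.17. In RYGB-FMRR the standard deviation of log2 CPM was 0.73 for Havcr1, 0.29 for Lcn2, 0.38 for Spp1 and 0.15 for Clu, with a median gene at 0.15. Clu in RYGB, at 0.07, varied less than most genes, only 10.4% of which had a smaller standard deviation.

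Because 2 SHAM rats held the highest values, each pair of SHAM rats was left out in turn, an alternative chosen after the values were seen. In SHAM compared with SD, Spp1 was called in 21 of 21 fits, with a log2 fold change of 1.41 (adjusted p = 0.001) without rats 311 and 333. Havcr1 and Lcn2 were called in 20 of 21, and were not without rats 311 and 333, at 0.47 (adjusted p = 0.548) and 0.59 (adjusted p = 0.154). In RYGB compared with SHAM, Havcr1 was called in 20, Lcn2 in 17, Spp1 in 16 and Clu in 17 of the 21 fits. Without rats 311 and 333 none of the 4 was called there, at -0.92 for Havcr1 (adjusted p = 0.236), -0.45 for Lcn2 (adjusted p = 0.304), -0.34 for Spp1 (adjusted p = 0.445) and -0.37 for Clu (adjusted p = 0.194). The share of all genes called was not counted in the fits that left out 2 SHAM rats, so a general loss of calls cannot be told apart. In RYGB-FMRR compared with SHAM, Havcr1 was called in 20 and Lcn2 in 16 of the fits. Every fit in which a call was lost left out rat 311. The direction was kept in each fit for the genes called with all 7 SHAM rats.

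**Figure D5:**
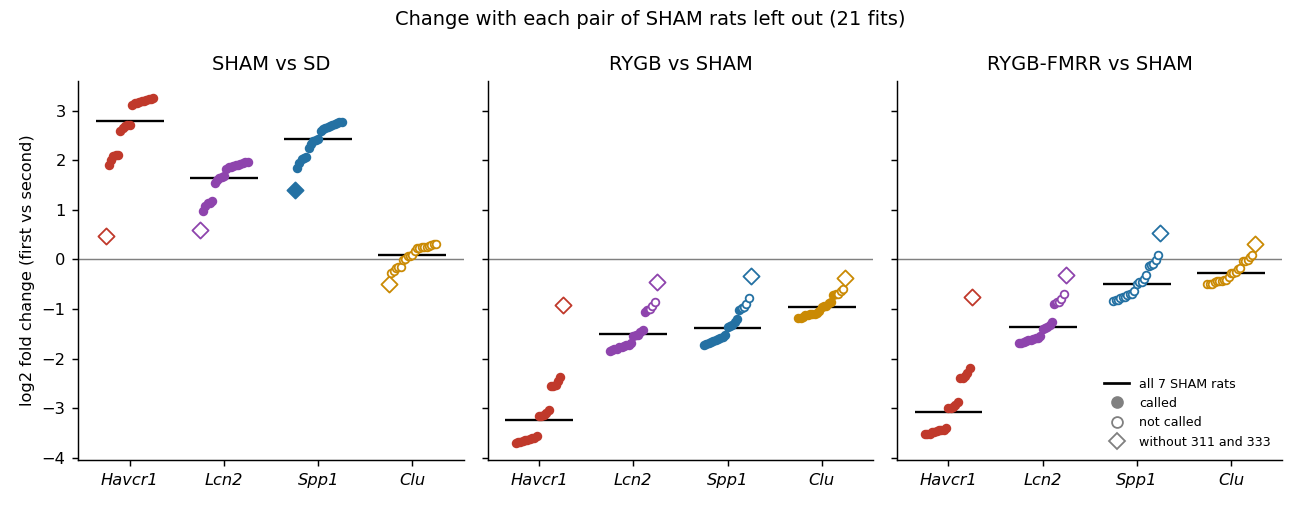
Log2 fold change in the 3 comparisons with SHAM when each of the 21 pairs of SHAM rats is left out; filled points were called, diamonds mark the fit without rats 311 and 333, and black bars the value with all 7 rats. Spp1 in SHAM compared with SD stays called at 1.41 without that pair, while Havcr1 drops to 0.47.

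Over all 29 rats, Havcr1 and Lcn2 were each other's most similar gene among the 14776 tested (Pearson's r of log2 CPM 0.82, a description over rats that share groups). ENSRNOG00000030729, on rn5 chromosome 20 from 6381703 to 6396071, was second for Havcr1 at r = 0.81. ENSRNOG00000020136, on chromosome 15 from 38268114 to 38281590, was among the 3 most similar to both Spp1 and Lcn2, at r = 0.81 with each. No gene reached r = 0.9 with any of the 4. After group means were subtracted, Lcn2 and Spp1 became each other's most similar gene (r = 0.91), and Havcr1 was most like ENSRNOG00000030729 (r = 0.83). Subtraction does not equalise the spread of the groups. In SHAM the standard deviation of log2 CPM was 1.20 for Lcn2 and 1.25 for Spp1. RYGB was next widest, at 0.61 and 0.54. The r of 0.91 therefore weighs the SHAM rats most. For Clu the most similar gene reached r = 0.71, or 0.75 after subtraction, and it was none of the other 3.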

How the data were processed

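RNA from renal cortex was sequenced as stranded, ribosomal RNA-depleted, paired-end libraries. The authors trimmed and aligned the reads to rn5 and counted read pairs per Ensembl gene on the reverse strand with featureCounts 1.6.4, and the deposited values are these raw counts. The members and lists were chosen with earlier results of these data known. Libraries with under 1000000 counts were left out. In edgeR 4.0.16 (R 4.3.3), filterByExpr (minimum count 10), TMM and the quasi-likelihood test were run on 4 groups in one model, with Benjamini-Hochberg adjustment over 14776 genes. SE was taken as the absolute log2 fold change over the root of F, and log2 CPM used a prior count of 2. The steps were tested on simulated data. Alternatives included DESeq2 1.42.0, the study's own test. No 2 libraries of a group were identical. No table used here pairs the identifiers with symbols (0 matched). The symbols of the 4 genes came with their identifiers and were checked by chromosome only. Fixed lists of tubular, leukocyte and regulator genes were therefore not analysed here. The rule for genes given by identifier, the 5 most similar genes of each member, was limited to 2 identifiers for the same reason. Of the labelled rats, 1 in RYGB-FMRR was not analysed here.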

Additional observations from a re-analysis of the deposited data

Results flagged for a closer look

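Among 16 groups of values (4 genes in 4 groups), 1 rat was separated from its neighbour by an unusually large share of the whole range of its group (above the 95% critical value of Dixon), where chance gives about 1 in 20. This was RYGB rat 330 for Lcn2, at a log2 CPM of 2.77 against 1.53 in the next rat, or 134 counts. The same rat was highest of its group for Spp1 (646 CPM) and number 4 of 9 for Havcr1.

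The 2 SHAM libraries that were left out held few Spp1 counts, which for their depth were above the level of every SD rat. Scaled to their own totals, without TMM, Spp1 was at 576 CPM in rat 343 (70 counts, 95% exact Poisson interval 449 to 728) and 827 CPM in rat 348 (84 counts, 660 to 1024), where the highest SD rat was at 274 CPM on the same scale. These intervals cover counting error only.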

How the results depend on the processing

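No paired analysis was possible because no label links a rat of one group to a rat of another. DESeq2's size factors, no filter on low counts, all 31 libraries and robust dispersion each left all 24 calls of the 4 genes as they were. In RYGB-FMRR compared with RYGB, Clu became called with the Wald test of DESeq2 (0.68), and Spp1 (0.88) and Clu (0.67) with a model of these groups alone. The exact permutation test of mean log2 CPM changes the measure and is not adjusted over genes. Set against the adjusted edgeR p-value, it fell on the other side of the threshold for Havcr1 in SHAM compared with SD (1.70) and RYGB-FMRR compared with SHAM (-1.73), for Lcn2 in the latter (-0.87), and for Spp1 (0.93) and Clu (0.68) in RYGB-FMRR compared with RYGB, where the unadjusted edgeR p-values, 0.0199 and 0.00774, were also under 0.05. Without the fold-change threshold the genes called rose to 5207 from 2744 in SHAM compared with SD, 1903 from 790 in RYGB compared with SHAM, 3242 from 1793 in RYGB-FMRR compared with SHAM, 1699 from 674 between the bypass groups, 6002 from 2884 in RYGB compared with SD and 4537 from 2473 in RYGB-FMRR compared with SD, since genes with fold changes under 1.3 are then counted.

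Leaving out 1 library kept 340 of 348 values on their side of the threshold, and leaving out 2 SHAM libraries 230 of 252. Over both, the log2 fold change in SHAM compared with SD ran from 0.47 to 3.25 for Havcr1 and 0.59 to 1.97 for Lcn2. In RYGB compared with SHAM it ran from -3.70 to -0.92 for Havcr1, -1.84 to -0.45 for Lcn2, -1.72 to -0.34 for Spp1 and -1.18 to -0.37 for Clu. In RYGB-FMRR compared with SHAM it ran from -3.53 to -0.75 for Havcr1 and -1.69 to -0.31 for Lcn2. For Spp1 in RYGB compared with SD it ran from 0.93 to 1.22. The cause was not tested. The alternatives for the fixed gene lists were not run.

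The results rest on 6 to 9 rats per group, and in SHAM on few of them. The lowest counts, 16 for Havcr1 and 27 for Lcn2, limit these genes in single rats.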

Other observations

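In the left-out SHAM libraries, Clu had 14 counts in rat 343 (115 CPM, 95% exact Poisson interval 63.0 to 193) and 24 in rat 348 (236 CPM, 151 to 352), both within the range of the SD rats. Havcr1 had 3 counts in each library, which is the floor set here. Scaled to the library totals this was 24.7 CPM in rat 343 (95% exact Poisson interval 5.09 to 72.2) and 29.5 CPM in rat 348 (6.09 to 86.3). The highest SD rat was at 9.80 CPM on the same scale, inside both intervals. Lcn2 had 0 counts in rat 343, with an upper 95% exact Poisson bound of 30.4 CPM, and 1 count in rat 348, so that a level like those of the other SHAM rats could not be seen.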
